A study of Homo sapiens with 12 samples.

Results

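The third of the FMR1-knockout lines of a human neuroblastoma series was compared with wild type. Its members are the 2 libraries of knockout line 3 among the 12 libraries of the series, 1 grown in heavy and 1 in light medium, and they were set against the 6 wild-type libraries. All genes that passed a filter on low counts entered the comparison, 16459 of the 59087 features in the table. SH-SY5Y is an established line of immature sympathetic neuroblasts taken from a neuroblastoma. The libraries hold poly(A) RNA of wild-type cells and of knockout lines 1, 2 and 3, which the labels call independently generated. Every culture spent 2 weeks in SILAC medium with dialyzed serum. The lysine and arginine were ordinary in light medium and carried heavy carbon and nitrogen isotopes in heavy medium, so that proteins of paired cultures can be told apart by mass. Wild type gave 3 libraries in each medium, and each knockout line gave 1. Nothing in the labels says that the wild-type libraries came from separate cultures, so p-values measure the spread between these libraries, which may be technical. Line 3 is 1 line, and what was changed in its FMR1 gene was not given in the sources used here. Loss of FMR1 and the making of that line cannot be told apart. The line was chosen as the one closest to wild type although its FMR1 mRNA was lowest, so neither of these is a finding.

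The product of FMR1 is FMRP, which binds RNA, associates with polyribosomes and holds back the translation of many neuronal messages. Its loss causes fragile X syndrome. FXR1 and FXR2 are its paralogs and bind it. How the gene was knocked out was not given in the sources used here, and a gene that makes no protein may still make mRNA that is counted.

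Depth was even. The 12 libraries held 25935152 to 40257027 counts, and those of line 3 held 30479130 (heavy) and 37840662 (light). Levels below are CPM, counts scaled to library size with TMM factors, and cannot be compared between genes of different length. An adjusted p is from edgeR's quasi-likelihood test with Benjamini-Hochberg adjustment over all genes tested, and a gene passed at an adjusted p under 0.05. Log2 fold changes are line 3 over wild type and carry standard errors (SE). The 13 adrenergic markers that define SH-SY5Y cells summed to 8284 and 7722 CPM in line 3 and to between 8088 and 8884 CPM in wild type. Of 5 glial markers, SOX10 and GFAP were at 0 in all 8 libraries, and among 5 immune markers PTPRC and CD3E were. The 5 fibroblast markers summed to 119 and 128 CPM in line 3 against 172 to 186 CPM in wild type. That sum consists almost wholly of PDGFRA and PDGFRB, which neuroblastoma cells also express. Mitochondrially encoded transcripts of all kinds took 10.9% and 11.8% of the counts in line 3 and 9.53% to 10.5% in wild type. The heavy library of line 1 stood apart from the light one of its line, with FMR1 at 22.4 against 11.4 CPM and MSN at 10.9 against 0.113 CPM. It enters no comparison of line 3 with wild type. It does enter the comparison with lines 1 and 2, which is given with and without it, and every average of line 1.

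FMR1 mRNA itself, ENSG00000102081.14 on chromosome X (147911951 to 147951125, plus strand, GRCh38), was at 7.15 CPM in the heavy and 9.05 CPM in the light library of line 3. The wild-type libraries had a lowest value of 36.0, a median of 37.3 and a highest value of 42.0 CPM. The groups did not overlap, and line 3 held 21.5% of the wild-type level (log2 fold change -2.21, SE 0.098, adjusted p = 1.01e-10). Both line 3 values were also below those of the other knockout lines, which had 22.4 and 11.4 CPM (line 1) and 12.7 and 11.5 CPM (line 2). FXR1 had 170 and 166 CPM in line 3 and 165 to 184 CPM in wild type. FXR2 had 120 and 129 CPM in line 3 and 116 to 128 CPM in wild type. Neither paralog passed (adjusted p = 0.725 for FXR1 and 0.823 for FXR2), and the line 3 values lay within or next to the wild-type range.

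**Figure D1:**
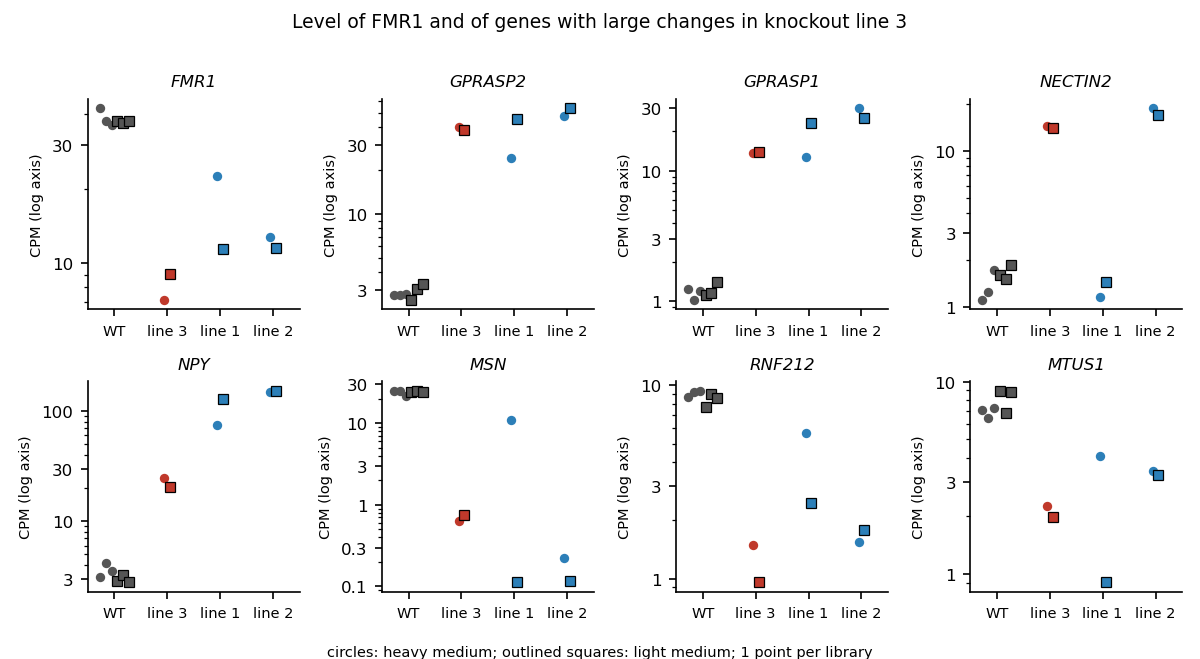
CPM on a log axis for FMR1 and 7 genes with large differences, 1 point per library, circles for heavy and outlined squares for light medium; wild type is grey, line 3 red, lines 1 and 2 blue. FMR1 is lowest in line 3, NECTIN2 is high in lines 3 and 2 and low in line 1, and NPY in line 3 lies between wild type and the other lines.

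The test called 1238 of 16459 genes, or 7.52%. Of these, 656 were higher in line 3 (3.99%) and 582 lower (3.54%). Most differences were small. The median size among called genes was 0.51 on the log2 scale, 719 of the 1238 were under 1.5-fold, and 260 reached 2-fold (1.58% of genes tested), 161 higher (0.978%) and 99 lower (0.601%). A difference of 4-fold was reached by 61 genes, 40 of them higher. Both line 3 libraries lay outside the whole wild-type range for 1200 of the called genes, whereas over all genes tested 21.7% had such groups. Tested the same way against wild-type libraries that all 3 comparisons share, line 1 had 4648 called genes (27.9% of 16681) and line 2 had 7540 (45.3% of 16661). The median absolute log2 fold change over all genes was 0.18 in line 1, 0.24 in line 2 and 0.11 in line 3. Without the heavy library of line 1, an alternative chosen after seeing the data, line 1 had 4392 called genes (25.6%) and a median of 0.23. The counts of line 3 rest on both of its libraries: fewer genes passed in each direction when either its heavy or its light library was left out. They also fell to 385 lower without wild-type heavy replicate 2 and to 366 lower without wild-type light replicate 2.

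**Figure D2:**
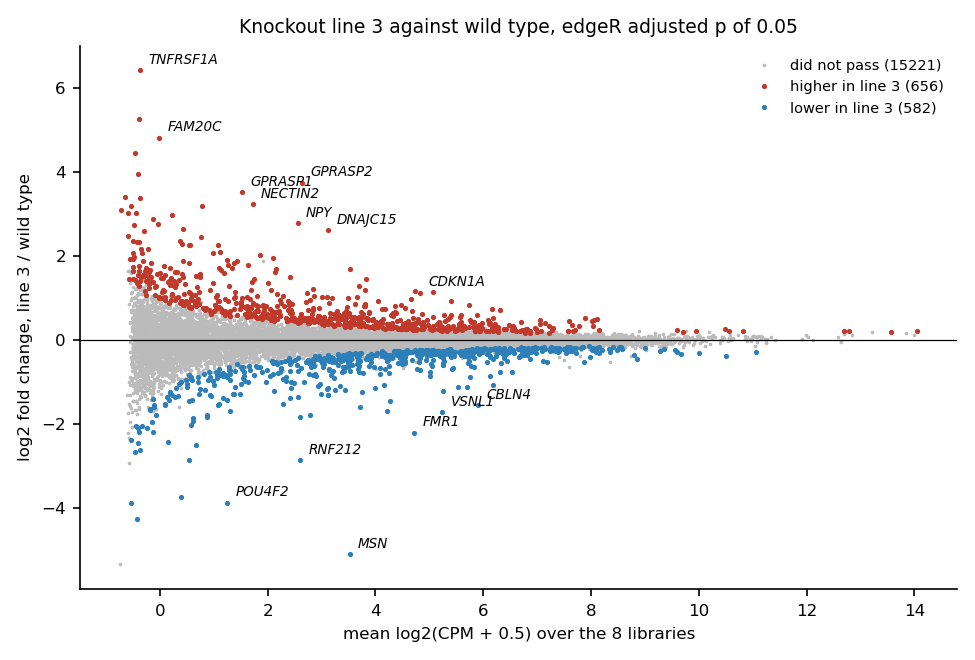
Log2 fold change of line 3 over wild type against the mean log2(CPM + 0.5) of the 8 libraries for 16459 genes; red points are the 656 genes called higher, blue points the 582 called lower, grey points did not pass. MSN and TNFRSF1A mark the ends of the named range, and most called genes lie close to 0.

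The largest rises included genes that wild type hardly expressed. Among them were receptors, sorting and adhesion proteins, enzymes that act on sugar chains and a neuropeptide. Among named genes at or above a mean of 2 CPM, TNFRSF1A, the main receptor for tumour necrosis factor, rose most. It had 2.09 and 2.02 CPM in line 3, while wild type had 4 reads in all over 6 libraries and none in 2 of them (highest 0.0339 CPM). The fitted log2 fold change of 6.42 (SE 0.391, adjusted p = 8.78e-09) therefore depends on the prior count. FAM20C, a secretory-pathway kinase, had 3.49 and 3.57 CPM against a wild-type range of 0.0339 to 0.196 CPM (log2 fold change 4.82, adjusted p = 2.05e-09). The groups lay far apart for both genes, yet lines 1 and 2 averaged higher still, at 14.5 and 14.0 CPM for TNFRSF1A and 29.9 and 37.8 CPM for FAM20C. Line 3 was below those lines in the test among knockout libraries (log2 difference -2.77, adjusted p = 0.000236 for TNFRSF1A and -3.23, adjusted p = 0.00509 for FAM20C).

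GPRASP2 and GPRASP1, neighbours on Xq whose proteins sort G protein-coupled receptors after endocytosis, rose together. GPRASP2 had 39.99 and 37.8 CPM in line 3, and 2.58, 2.80 and 3.29 CPM as the lowest, median and highest wild-type value (log2 fold change 3.75, SE 0.086, adjusted p = 1.2e-14). GPRASP1 had 13.6 and 13.9 CPM in line 3 and 1.03, 1.18 and 1.42 CPM in wild type (log2 fold change 3.52, SE 0.116, adjusted p = 1.74e-12). The read-through transcript ARMCX5-GPRASP2 had 4.85 and 6.603 CPM against 0.496 to 0.745 CPM, but it overlaps GPRASP2, and reads of the pair may have been shared between them. The other lines were high as well: GPRASP2 averaged 34.8 CPM in line 1 and 50.3 CPM in line 2, and line 3 minus their mean was -0.07 on the log2 scale (SE 0.219, adjusted p = 0.872). The 250 bases before the RefSeq start of each gene are shown because the 2 genes moved together. Both are on the plus strand of GRCh38.p14, at chrX:102651233-102651482 for GPRASP1 and chrX:102712198-102712447 for GPRASP2, and capitals mark each CG, the dinucleotide that can be methylated and that reads the same on both strands.
GPRASP1: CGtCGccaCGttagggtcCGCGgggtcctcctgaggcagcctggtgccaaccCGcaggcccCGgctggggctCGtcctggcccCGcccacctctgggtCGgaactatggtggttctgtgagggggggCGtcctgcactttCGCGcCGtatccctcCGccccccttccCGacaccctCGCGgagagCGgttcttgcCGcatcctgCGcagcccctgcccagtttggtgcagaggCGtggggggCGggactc
GPRASP2: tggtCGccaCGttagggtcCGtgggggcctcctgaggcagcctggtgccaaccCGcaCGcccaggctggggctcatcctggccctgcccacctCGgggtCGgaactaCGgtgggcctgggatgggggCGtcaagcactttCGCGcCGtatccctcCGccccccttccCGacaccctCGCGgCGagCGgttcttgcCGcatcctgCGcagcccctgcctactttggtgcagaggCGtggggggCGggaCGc
Each window held 23 CG, and 230 of 251 aligned positions were identical (91.6%). In the counts over many genes, each gene entered with its first listed window, although 5191 symbols had more than 1. Over the tested genes with a RefSeq promoter (10888 of 16459) the median was 21 CG. It was 19 among 442 genes called higher and 21 among 439 called lower. At least 1 CG was present in 99.3% of the windows of these tested genes. Over all 27305 genes with a RefSeq promoter, tested or not, that share was 93.6%. Methylation was not measured.

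NECTIN2, a cell adhesion molecule and ligand of immune receptors, had 14.4 and 14.2 CPM in line 3 and 1.12, 1.56 and 1.88 CPM in wild type (log2 fold change 3.23, SE 0.128, adjusted p = 1.74e-11). Line 2 was high as well, at 18.0 CPM, and line 1 at 1.30 CPM lay within the wild-type range. NPY, the sympathetic neuropeptide Y, had 24.5 and 20.3 CPM against 2.80, 3.15 and 4.13 CPM (log2 fold change 2.77, SE 0.098, adjusted p = 3.39e-12). Lines 1 and 2 averaged 101 and 150 CPM, so line 3 sat between them and wild type. DNAJC15, a co-chaperone of the mitochondrial import machinery, had 32.8 and 30.2 CPM in line 3 against 4.53 to 5.99 CPM (log2 fold change 2.62, adjusted p = 3.39e-12), with 22.1 and 20.1 CPM in lines 1 and 2.

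The other 7 of the 15 largest rises had log2 fold changes from 2.25 to 2.65. They were GALNT6, which starts mucin-type sugar chains, CHST8, a sulfotransferase of glycoprotein hormones, HS6ST3, a heparan sulfate sulfotransferase, RSPO4, an enhancer of Wnt signalling, PNPLA4, a lipase of retinol esters, GTSF1, a factor of small-RNA silencing in germ cells, and GLT1D1, a glycosyltransferase family member. For GTSF1 the lines differed widely: line 3 had 2.56 and 2.48 CPM, wild type 0.387 to 0.546 CPM, line 1 on average 25.4 CPM and line 2 on average 0.441 CPM. Line 3 was below the mean of lines 1 and 2, past the threshold, for GALNT6, CHST8, HS6ST3, RSPO4, PNPLA4 and GLT1D1.

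The largest fall was of MSN, which encodes moesin, a linker of the actin cortex to membrane proteins. It stood at 0.632 and 0.746 CPM in line 3 and at 21.3, 24.4 and 24.9 CPM as lowest, median and highest wild-type value, so line 3 held 2.87% of the wild-type level (log2 fold change -5.11, SE 0.141, adjusted p = 1.3e-13). The groups were far apart. In line 2 it was at 0.224 and 0.116 CPM. The RefSeq starts of MSN in the table, both on the plus strand of GRCh38.p14, differ in their CG content over the 250 bases before them, and both are shown because expression was nearly lost: chrX:65588127-65588376 with 5 CG and chrX:65667404-65667653 with 26 CG, with each CG in capitals.
MSN start 1: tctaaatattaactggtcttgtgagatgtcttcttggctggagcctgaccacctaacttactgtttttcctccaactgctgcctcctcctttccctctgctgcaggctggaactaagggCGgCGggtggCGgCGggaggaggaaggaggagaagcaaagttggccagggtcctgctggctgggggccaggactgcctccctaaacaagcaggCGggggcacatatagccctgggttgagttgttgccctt
MSN start 2: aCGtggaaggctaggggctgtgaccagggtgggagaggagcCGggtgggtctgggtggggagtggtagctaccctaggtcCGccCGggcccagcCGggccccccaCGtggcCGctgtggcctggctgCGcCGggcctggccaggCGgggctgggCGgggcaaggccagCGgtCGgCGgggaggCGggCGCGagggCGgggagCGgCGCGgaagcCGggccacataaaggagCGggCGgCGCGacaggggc
The counts are per gene and do not say which start was used in wild type.

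POU4F2, a transcription factor of sensory and retinal neurons, was at 0.199 and 0.213 CPM against 2.42, 3.07 and 3.56 CPM (log2 fold change -3.88, adjusted p = 6.85e-08). RNF212, a ubiquitin-like ligase of meiotic recombination, was at 1.496 and 0.959 CPM against 7.74 to 9.38 CPM (log2 fold change -2.86, adjusted p = 2.05e-09). MTUS1, a microtubule-associated protein, was at 2.26 and 1.97 CPM against 6.48 to 8.95 CPM (log2 fold change -1.85, adjusted p = 5.07e-07). None of these groups overlapped with wild type. Each of these genes was also below every wild-type library in lines 1 and 2, with POU4F2 at 0 CPM in both libraries of line 2.

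Among more abundant genes, VSNL1, a neuronal calcium sensor, fell from 43.8, 49.1 and 60.0 CPM in wild type to 16.3 and 14.1 CPM (log2 fold change -1.73, SE 0.100, adjusted p = 1.09e-08). CBLN4, a secreted synaptic organizer, fell from 71.2, 78.0 and 84.9 CPM to 31.8 and 21.7 CPM (log2 fold change -1.55, adjusted p = 7.25e-06). HGF, hepatocyte growth factor, fell from 20.3, 23.8 and 29.7 CPM to 10.3 and 5.14 CPM (log2 fold change -1.69, adjusted p = 0.00341). Line 3 libraries were below every wild-type library for all 3 genes. HGF averaged 5.92 CPM in line 1 and 0.534 CPM in line 2. The remaining falls on the list were of ZDHHC2, a palmitoyltransferase, NEUROG2, a proneural factor, LINC02575, B3GNT4, HOXD13, CDC42BPG and ADAMTS19, with log2 fold changes from -1.45 to -1.79. When all 12 libraries shared 1 estimate of the spread, 5 falls no longer passed: ZDHHC2 (adjusted p = 0.134), VSNL1 (0.151), CBLN4 (0.150), HGF (0.265) and ADAMTS19 (0.36). NEUROG2 did not pass without the light library of line 3 (adjusted p = 0.0882).

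The 34 gene lists below are described by how many tested members passed in each direction, to be read against 3.99% higher and 3.54% lower over all genes, and by their median log2 fold change, which was -0.00 over all genes tested (-0.00475 before rounding). None of them was tested as a set. Members named beyond the 4 of each list with the smallest p were chosen after their values were seen. Beside the counts that lead, the counts without 1 library of line 3 are given, since each line 3 library alone called fewer genes.

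mRNAs that FMRP is known to bind went in both directions. Of 59 tested ligand mRNAs, 4 were higher and 4 lower, and the median was -0.00 (-0.00152). The counts were 3 and 2 without the heavy library of line 3 and 3 and 3 without the light one, without wild-type heavy replicate 2 also 3 and 2, without wild-type light replicate 2 or 3 they were 4 and 2, and with the replicate block 3 and 1. GRIN1, the obligatory subunit of NMDA receptors, rose from 22.3, 25.5 and 29.7 CPM to 38.9 and 40.9 CPM (log2 fold change 0.63, adjusted p = 0.000197). NAV1, a microtubule guidance protein, rose from 46.3 to 56.3 CPM in wild type to 70.3 and 69.6 CPM (log2 fold change 0.42, adjusted p = 0.000487), and ATP2B2, a calcium pump, rose by 0.53 on the same scale. PTPRD, a synaptic receptor phosphatase, fell from 10.3 to 12.7 CPM in wild type to 6.42 and 4.63 CPM (log2 fold change -1.10, adjusted p = 1.44e-05). Line 3 libraries lay outside the wild-type range for all 4. Of 22 proteins that act with FMRP, DICER1, the nuclease that cuts precursors of small RNAs, was the single one to pass: it fell from 75.9 to 90.2 CPM in wild type to 61.2 and 60.9 CPM (log2 fold change -0.39, adjusted p = 0.000758). Of 42 genes of RNA decay and silencing, 2 were lower (DICER1 and PAN2) and none higher, and PAN2 lost its call when the heavy library of line 3 was left out (adjusted p = 0.571). Of 25 factors of nonsense-mediated decay 1, MAGOHB, was lower, and 0 without either line 3 library. Of 37 known targets of that pathway 2 were higher and 2 lower, and 1 higher and 0 lower without either line 3 library.

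Sympathetic identity genes went up and down. In the list of 35 adrenergic and catecholamine genes, 7 were higher and 8 lower (5 to 6 higher and 3 to 6 lower without 1 line 3 library), with a median of -0.02. Besides NPY, the rises included MAOB, which breaks down amines, at 9.44 and 11.2 CPM against 1.88, 2.79 and 3.26 CPM (log2 fold change 1.94, adjusted p = 6.85e-08). SLC6A2, the noradrenaline transporter, rose from 48.4, 52.7 and 57.1 CPM to 78.8 and 80.6 CPM (log2 fold change 0.59, adjusted p = 3.26e-06), and RET, the receptor of GDNF-family ligands, from 34.0, 37.0 and 39.6 CPM to 51.1 and 52.9 CPM (log2 fold change 0.50, adjusted p = 7.72e-05). Line 3 was above every wild-type library and below the mean of lines 1 and 2 for each of MAOB, SLC6A2 and RET. ISL1, a homeobox factor of sympathetic neurons, fell from 249.6 to 282.6 CPM in wild type to 223.8 and 184.9 CPM (log2 fold change -0.40, adjusted p = 0.000268). DBH, which makes noradrenaline, had 1960 and 1715 CPM against 2002 to 2464 CPM (log2 fold change -0.29, adjusted p = 0.0164). Its log2 fold change was -0.14 in heavy and -0.46 in light medium. MYCN, the neuroblastoma oncogene, fell by 0.45 on the log2 scale (adjusted p = 0.00575). PHOX2A, HAND2, GATA2 and GATA3, core factors of the adrenergic state, did not pass (log2 fold changes from -0.13 to 0.12).

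Of 29 genes of the mesenchymal type of neuroblastoma cell, 5 were higher and 5 lower (4 and 2 without the heavy library of line 3, 3 and 1 without the light one, and 3 and 1 with all 12 libraries in one fit). S100A6, a calcium-binding protein, rose from 20.1, 20.7 and 23.3 CPM to 50.9 and 43.9 CPM (log2 fold change 1.15, adjusted p = 8.67e-09), and VIM, vimentin, from 19.5 to 23.6 CPM in wild type to 30.9 and 28.97 CPM. FN1, fibronectin, and NOTCH3 fell by 0.38 and 0.55 on the log2 scale. PRRX1, which defines that state, was at 0 in all 12 libraries. Of 8 tested glial and Schwann cell genes 3 were higher, namely PMP22, GAP43 and L1CAM, of which GAP43 and L1CAM are also on the neuronal list. When the heavy library of line 3 was left out GAP43 lost its call (adjusted p = 0.1003), and L1CAM did so when either was (0.135 and 0.218). Of 8 fibroblast genes 1 was higher (ACTA2) and 3 lower (PDGFRA, PDGFRB and LUM). PDGFRB (adjusted p = 0.106) and LUM (0.319) did not pass when the heavy library of line 3 was left out, LUM also did not with DESeq2 (0.0921) or without the light library (0.157), and PDGFRA did not with all 12 libraries in one fit (0.367). Neither of 2 tested immune genes passed.

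Genes of neuronal differentiation and vesicle release were more often higher. Of 35 neuronal genes 11 were higher and 3 lower (5 and 2 without the heavy library of line 3, 7 and 1 without the light one), and the median was 0.08. PRPH, the filament protein peripherin of peripheral neurons, had 1.46 and 1.62 CPM against 0.163 to 0.307 CPM (log2 fold change 2.88, adjusted p = 2.06e-06). NSG2, an endosomal protein of neurons, rose from 231, 254 and 280 CPM to 346 and 367 CPM (log2 fold change 0.49, SE 0.055, adjusted p = 1.35e-05), and ELAVL4, a neuronal RNA-binding protein, from 215 to 261 CPM in wild type to 334 and 321 CPM. NRCAM, an axonal adhesion molecule, rose from 197 to 244 CPM in wild type to 320 and 302 CPM (log2 fold change 0.53, adjusted p = 4.95e-05).

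Of 34 synaptic vesicle genes 7 were higher and none lower (adjusted p under 0.05 with edgeR; 13 and 5 at an unadjusted p under 0.05; 7 and none with DESeq2 and with limma-voom). Without the heavy library of line 3 a single one was higher, and without the light one 5 were higher and 1 lower. SYT4, a synaptotagmin of dense-core vesicles, rose from 67.1, 69.1 and 76.5 CPM to 112 and 117 CPM (log2 fold change 0.71, SE 0.058, adjusted p = 3.73e-07). CPLX2, complexin 2, which clamps vesicle fusion, had 252 and 232 CPM against 176 to 204 CPM, and leaving out the heavy library ended its call (adjusted p = 0.084). Both genes were above every wild-type library. The list medians in lines 1 and 2, fitted against the same wild type, were 0.31 and 0.47, against 0.07 in line 3, and 0.43 in line 1 without its heavy library.

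Receptors and channels went both ways. Of 27 neurotransmitter receptors 3 were higher and 3 lower (3 and 4 without the heavy library of line 3, 1 and 3 without the light one). CHRM2, a muscarinic receptor, fell from 33.3, 36.4 and 40.2 CPM to 18.7 and 21.5 CPM (log2 fold change -0.87, adjusted p = 2.22e-06), and GRIK3, a kainate receptor subunit, from 9.83 to 12.8 CPM in wild type to 4.36 and 5.30 CPM (log2 fold change -1.20, adjusted p = 5.67e-06; 0.335 with 1 spread shared by all 12 libraries). Of 33 voltage-gated channel genes 2 were higher and 3 lower, and 0 higher without either line 3 library.

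Guidance, adhesion and matrix genes were more often lower. Of 44 axon guidance and adhesion genes 4 were higher and 11 lower (4 and 8 to 10 without 1 line 3 library), with a median of -0.12. With all 12 libraries in one fit 3 were higher and 7 lower. The median deviation per library was -0.05 in the heavy library, inside the wild-type range of -0.05 to 0.07, and -0.07 in the light one. SEMA3C, a secreted guidance cue, fell from 56.1, 61.5 and 72.2 CPM to 29.99 and 27.96 CPM (log2 fold change -1.12, SE 0.088, adjusted p = 3.54e-07). UNC5D, a netrin receptor family member, fell from 15.1 to 17.4 CPM in wild type to 8.15 and 5.54 CPM (log2 fold change -1.24, adjusted p = 2.35e-06). NCAM2, an adhesion molecule, fell from 5.34 to 6.83 CPM in wild type to 2.86 and 3.09 CPM (log2 fold change -1.04, adjusted p = 2.09e-05). ROBO2, a Slit receptor, and NRCAM were among the 4 rises. Line 3 was below all wild-type libraries for the 3 named falls.

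Of 37 extracellular matrix genes 3 were higher and 10 lower (1 and 7 without the heavy library, 0 and 7 without the light one), with a median of -0.11. With all 12 libraries in one fit 3 matrix genes were higher and 4 lower, so the counts were nearly even there. TFPI2, a protease inhibitor of the matrix, fell from 50.8, 56.9 and 59.2 CPM to 24.9 and 26.2 CPM (log2 fold change -1.13, SE 0.070, adjusted p = 1.09e-08). VCAN, the proteoglycan versican, fell from 8.49 to 12.6 CPM in wild type to 4.59 and 4.42 CPM. COL11A1, a fibrillar collagen chain, fell from 6.70 to 10.0 CPM in wild type to 3.46 and 4.53 CPM (log2 fold change -1.11, adjusted p = 0.000133; 0.459 with 1 spread shared by all 12 libraries). The fibroblast marker sum, lower in line 3 as given above, moves with these genes, and its part in them was not tested.

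The clustered protocadherins, adhesion proteins that give neurons a surface identity, had a median of -0.18 over 46 tested genes, with 2 higher and 7 lower (2 and 3 without the heavy library, 2 and 4 without the light one). PCDHB15 fell from 4.93 to 6.76 CPM in wild type to 2.76 and 2.98 CPM (log2 fold change -1.001, adjusted p = 9.26e-05), and PCDHB9 from 4.59 to 5.42 CPM to 2.86 and 2.56 CPM (-0.92, adjusted p = 0.000194). PCDHB10 and PCDHB12 of the same cluster rose by 0.64 and 0.86. The medians in line 1 and line 2 were 0.03 and 0.01. Neighbouring members are near-identical in part, so reads may be divided among them.

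In the BMP, TGF-beta and ID list 4 of 28 genes were lower and none higher (3 lower and 1 higher without the heavy library of line 3, 2 lower without the light one and 2 lower with all 12 libraries in one fit). BMP7, a bone morphogenetic protein, fell from 56.8 to 67.4 CPM in wild type to 41.2 and 39.0 CPM (log2 fold change -0.66, adjusted p = 4.51e-06; 0.582 with 1 spread shared by all 12 libraries), and ID4, an inhibitor of proneural factors, from 1.86 to 2.95 CPM to 1.16 and 0.559 CPM. At an unadjusted p under 0.05, 1 was higher and 5 lower, and DESeq2 called 3 lower. Of 22 Notch genes 1 was higher (NOTCH1) and 2 lower (NOTCH3 and NRARP). With the heavy library of line 3 left out none was higher and 1 lower, with the light one left out 1 was higher and 1 lower, and with all 12 libraries in one fit none was lower.

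**Figure D3:**
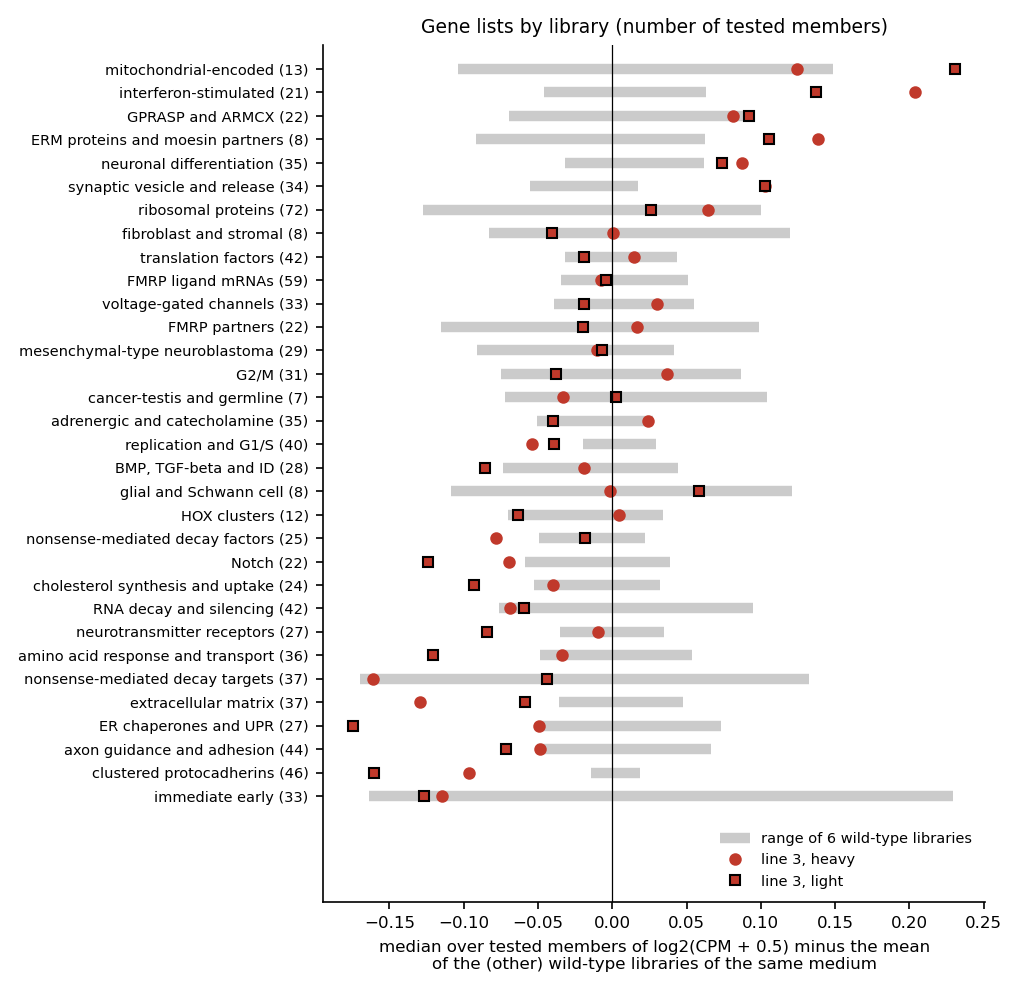
Median per library over the tested members of 32 lists, on the log2(CPM + 0.5) scale, relative to wild-type libraries of the same medium; grey bars span the 6 wild-type libraries, red circles and squares are line 3 in heavy and light medium. Both line 3 points lie above the wild-type range for interferon-stimulated, synaptic, neuronal and ERM genes. They lie below it for clustered protocadherins, extracellular matrix, Notch, ER chaperones, and replication and G1/S.

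CDKN1A, the cell cycle inhibitor p21, rose from 20.3, 23.1 and 24.5 CPM to 48.2 and 51.6 CPM (log2 fold change 1.12, SE 0.067, adjusted p = 6.74e-09). It averaged 24.8 CPM in line 1 and 22.4 CPM in line 2, and line 3 was higher than those lines by 1.09 on the log2 scale (adjusted p = 3.03e-05). PHLDA3, a repressor of AKT signalling, rose from 10.5, 11.7 and 12.6 CPM to 21.1 and 21.4 CPM (log2 fold change 0.86, adjusted p = 1.9e-06). Lines 1 and 2 averaged 16.4 and 17.5 CPM for PHLDA3 and were higher than wild type as well (log2 fold changes 0.48 and 0.58). Both line 3 libraries exceeded all wild-type libraries for CDKN1A and PHLDA3. TNFRSF10B, a death receptor, rose from 55.2, 59.0 and 60.1 CPM to 78.6 and 74.2 CPM (log2 fold change 0.39, adjusted p = 0.000158).

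Few cell cycle genes passed. None of 31 G2/M genes passed with edgeR, DESeq2 or limma-voom (1 higher and 3 lower at an unadjusted p under 0.05), and CCNB1, CCNB2, AURKB and KIF20A had log2 fold changes from -0.18 to 0.12. Of 40 replication and G1/S genes 3 were lower, RRM2, E2F7 and POLE, with a median of -0.05. None was lower without the heavy library of line 3, and 1 without the light one. The list medians per library, -0.05 in the heavy and -0.04 in the light one, lay below the wild-type range of -0.02 to 0.03. RRM2, the ribonucleotide reductase subunit, had 237 and 234 CPM against 265.5, 285.8 and 309.9 CPM (log2 fold change -0.29, adjusted p = 0.00106); it lost the call when the heavy library of line 3 was left out (adjusted p = 0.1185). In lines 1 and 2, 28 and 17 G2/M genes were lower (13.3% and 22% of all genes were), and 25 in line 1 without its heavy library.

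A few genes of the secretory pathway and of metabolism were slightly lower. Of 27 ER chaperone and unfolded protein genes 3 were lower and none higher (11 and none at an unadjusted p under 0.05; 6 lower with DESeq2 and 4 with limma-voom), with a median of -0.12. With all 12 libraries in one fit no gene of this list passed. HSP90B1, an ER chaperone, had 688.5 and 631.7 CPM against 740.3, 776.9 and 842.8 CPM (log2 fold change -0.25, adjusted p = 0.0085), and CALR, calreticulin, 603 and 568 CPM against 638 to 692 CPM (-0.21, adjusted p = 0.0122). Without the light library of line 3 none of the 3 passed (HSP90B1 adjusted p = 0.23, CALR 0.27). Of 24 cholesterol genes 4 were lower, INSIG1, HMGCS1, IDI1 and STARD4. None was lower without the light library of line 3 or with all 12 libraries in one fit, 1 without the heavy library, 1 without wild-type heavy replicate 2 or light replicate 3, and 2 without wild-type light replicate 1 or 2. Of 36 genes of the amino acid response and transport 1 was higher and 6 lower (0 and 3 without the heavy library, 0 and 1 without the light one). SLC38A2, a neutral amino acid transporter, had 243 and 234 CPM against 275 to 296 CPM (log2 fold change -0.25, adjusted p = 0.00205), and it did not pass without the heavy (0.0506) or the light library of line 3 (0.0629).

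Interferon-stimulated genes were higher where they passed. Of 21 tested, 6 were higher and none lower with edgeR (8 and none at an unadjusted p under 0.05; 5 and none with DESeq2), but 1 without the heavy and 2 without the light library of line 3. OAS3, a sensor of double-stranded RNA, rose from 9.75, 10.9 and 12.3 CPM to 26.3 and 23.6 CPM (log2 fold change 1.19, SE 0.089, adjusted p = 1.08e-07), and lines 1 and 2 averaged 25.2 and 30.9 CPM. ISG15, a ubiquitin-like modifier, was at 0.765 and 0.639 CPM against 0.0968 to 0.339 CPM, and did not pass without either line 3 library (adjusted p = 0.2197 without the heavy and 0.0987 without the light one).

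Of 13 mitochondrially encoded mRNAs 6 were higher and none lower (11 and none at an unadjusted p under 0.05; 6 with DESeq2 and 7 with limma-voom), with a median of 0.20, 2 without the heavy and 0 without the light library of line 3. MT-ND3, a subunit of respiratory complex I, had 1597 and 1708 CPM against 1318, 1378 and 1443 CPM (log2 fold change 0.26, adjusted p = 0.00111). Its list median was 0.12 in the heavy library, inside the wild-type range of -0.10 to 0.15, and 0.23 in the light one. The mitochondrial share of counts, higher in both line 3 libraries than in wild type, includes these mRNAs. None of 72 ribosomal protein genes passed with edgeR, DESeq2 or limma-voom (1 higher at an unadjusted p under 0.05), and 1 of 42 translation factors, EIF5, was lower, and 0 without either line 3 library.

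Of 33 immediate early genes 2 were higher and 5 lower, with line 3 medians of -0.11 and -0.13 inside the wild-type range of -0.16 to 0.23. The counts were 1 and 0 without the heavy library of line 3, 2 and 1 without the light one, and 0 and 2 with all 12 libraries in one fit. Among 12 tested HOX genes HOXD3 was higher and HOXD13 lower, and HOXD3 lost its call without the heavy (adjusted p = 0.1605) or the light library of line 3 (0.183). Among 7 tested cancer-testis genes MAGEC1 rose from 0.982 to 1.68 CPM in wild type to 4.49 and 5.35 CPM (log2 fold change 1.903, adjusted p = 1.24e-06) and MAGEA3 was higher by 0.30, with a call lost without the heavy (adjusted p = 0.189) or the light library of line 3 (0.0828). Of 22 GPRASP and ARMCX family genes and their Xq neighbours 5 were higher, among them TCEAL2 and ARMCX1, the latter with a log2 fold change of 0.32 (adjusted p = 0.0343). With all 12 libraries in one fit 4 were higher, and 4 with the replicate block. Of 8 ERM proteins and moesin partners MSN was lower and CD44 and SLC9A3R1 higher, the last of which lost its call without either line 3 library, as did CD44.

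Line 3 was then set against lines 1 and 2 among the 6 knockout libraries, which shows where it differs from the other knockouts without wild type. Of 16722 genes 2701 passed (16.2%), 1259 higher in line 3 (7.53%) and 1442 lower (8.62%). Without the heavy library of line 1, which stood apart, 1885 were higher and 2083 lower. Without the heavy library of line 2 the counts fell to 225 and 398, without its light one to 785 and 839, without the light library of line 3 to 425 and 634, and without its heavy one to 741 higher and 999 lower. EPHB4, a receptor of ephrin ligands, had 42.2 and 40.6 CPM in line 3 and averaged 18.0 and 2.07 CPM in lines 1 and 2 (log2 difference 2.83, adjusted p = 0.0131), near its wild-type range of 42.5 to 48.1 CPM. LHFPL3, a four-span membrane protein, had 3.89 and 3.52 CPM against 1.14 and 0.0474 CPM (4.11, adjusted p = 0.00111), and ERBB4, the neuregulin receptor, 3.56 and 2.90 CPM against 0.753 and 0.2002 CPM (3.16, adjusted p = 0.000942). None of EPHB4, LHFPL3 and ERBB4 passed against wild type. PHETA2, XKRX, PAPPA2, ARHGEF16 and ARHGAP6 were the other 5 largest, with log2 differences from 2.41 to 2.91. EPHB4 lost its call when the heavy library of line 2 (adjusted p = 0.0597) or the light one of line 3 (0.0763) was left out. PHETA2 lost it without either library of line 2 or of line 3 (adjusted p from 0.0844 to 0.211), ARHGEF16 without the same 2 libraries as EPHB4 (0.104 and 0.1335), and PAPPA2 without the light library of line 3 (0.0588).

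Among the genes furthest below lines 1 and 2 were a cancer-testis antigen, a neuropeptide receptor and a cell death gene. MAGEA10 had 0.399 and 0.320 CPM in line 3 and averaged 43.3 and 35.9 CPM in lines 1 and 2 (log2 difference -6.79, adjusted p = 0.000327), with 0.0653 to 0.198 CPM in wild type. NPY2R, a receptor of neuropeptide Y, had 0.399 and 0.612 CPM against 4.10 and 9.40 CPM (-3.60, adjusted p = 1.54e-05), and HRK, a BH3 protein that promotes cell death, 0.266 and 0.399 CPM against 2.78 and 5.30 CPM (-3.50, adjusted p = 3.92e-05). NPY2R and HRK lay within or below their wild-type ranges in line 3. SP140L had no read in either line 3 library, which allows up to 0.0444 CPM for 3 counts over both, and averaged 0.143 CPM in line 1 and 6.78 CPM in line 2. GABRQ, MIR100HG, SMIM10 and EGFLAM completed the 8, with log2 differences from -3.50 to -3.92.

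Some genes set line 3 apart from wild type and from the other lines. Of 16180 genes in both fits, 73 were higher than wild type and than lines 1 and 2, 66 of them above all 10 other libraries. Another 97 were lower than both, 95 of them below all 10. These genes had passed both tests, so little overlap follows from how they were selected. The share of all 16180 genes outside the 10 libraries was not counted. Against wild type alone, 21.7% of all genes tested had no overlap. In 224 genes line 3 was higher than wild type and lower than lines 1 and 2, and in 57 it was lower than wild type and higher than those lines. The following genes were named after their values were seen. GDF15, a secreted stress cytokine, had 5.92 and 5.75 CPM in line 3, 1.03, 1.44 and 2.35 CPM in wild type, and averaged 1.55 and 1.68 CPM in lines 1 and 2 (log2 fold change against wild type 1.87, adjusted p = 1.31e-05). PARVA, a focal adhesion protein, had 9.54 and 9.27 CPM against 2.68 to 3.42 CPM in wild type (1.68, adjusted p = 2.49e-08), and TCEAL2 13.7 and 11.5 CPM against 4.497 to 6.03 CPM (1.21, adjusted p = 1.24e-06). ACTA2, smooth muscle actin, SGK1, a kinase of hormone and stress signalling, SYK, INPP5D, RFLNA, FSTL4, NIPAL2 and PCDHB12 were further such rises, with log2 fold changes from 0.75 to 1.89. Several of these calls rest on single libraries. Against wild type, SGK1 did not pass without the light library of line 3 (log2 fold change 0.47, adjusted p = 0.159), and RFLNA (0.1797), NIPAL2 (0.124) and SYK (0.0545) did not without the heavy one. Against lines 1 and 2, SYK did not pass with DESeq2 (0.153), nor without the heavy library of line 3 (log2 difference 0.37, adjusted p = 0.456) or either library of line 2 (0.0863 and 0.247). SGK1 and NIPAL2 did not pass against those lines without the light library of line 3 (0.115 and 0.0675) or the heavy one of line 2 (0.0597 and 0.0805), nor INPP5D without the former (0.0565). GDF15, PARVA, TCEAL2, ACTA2, FSTL4 and PCDHB12 kept both calls whichever library was left out.

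Lower in both line 3 libraries than in all wild-type libraries was IGF2, the imprinted fetal growth factor, at 4.72 and 3.54 CPM against 9.29, 10.1 and 11.3 CPM in wild type and averages of 10.9 and 10.4 CPM in lines 1 and 2 (log2 fold change -1.32, SE 0.126, adjusted p = 2.02e-06). Its neighbour H19, imprinted in the opposite way, had 411 and 303 CPM against 354 to 434 CPM and did not pass (adjusted p = 0.355). FBXO43, an inhibitor of the anaphase-promoting complex in meiosis, was at 0.399 and 0.346 CPM against 1.03 to 1.66 CPM in wild type and averaged 3.00 and 3.01 CPM in lines 1 and 2. ZIK1, ARHGAP36, FLRT1, PRLHR, MYH15, RNF212 and CDC42BPG were also below both. Against lines 1 and 2, RNF212 did not pass with DESeq2 (adjusted p = 0.0742) or limma-voom (0.0573), nor without either library of line 3 (0.187 and 0.201) or the light one of line 2 (0.148), and ARHGAP36 did not without either library of line 2 or of line 3 (0.0519 to 0.142). Against wild type, FLRT1 (0.068) and MYH15 (0.114) did not pass without the light library of line 3.

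A run of 4 neighbouring non-coding genes on chromosome 21 was lower in line 3 than in every other library. LINC02575 (44485577 to 44490288, plus strand, GRCh38) had 5.42 and 5.51 CPM against 14.6, 16.8 and 17.7 CPM in wild type (log2 fold change -1.60, SE 0.103, adjusted p = 1.48e-08). AP001065.2 (44494874 to 44495519) had 0.399 and 0.320 CPM against 1.03 to 1.63 CPM, and TSPEAR-AS1 (44506807 to 44516575) 4.42 and 3.20 CPM against 8.20 to 10.5 CPM (-1.30, adjusted p = 2.94e-06). TSPEAR-AS2 (44517216 to 44525952) had 9.91 and 9.96 CPM against 18.5 to 22.5 CPM (-1.08, adjusted p = 4.65e-07). In lines 1 and 2 the last averaged 39.6 and 40.4 CPM, above wild type, and the first 20.3 and 18.0 CPM. TSPEAR-AS1 and TSPEAR-AS2 lie opposite the gene TSPEAR (44497892 to 44711580, minus strand), which was at or under 0.258 CPM in all 8 libraries. Whether the counting used strand was not given in the sources used here.

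**Figure D4:**
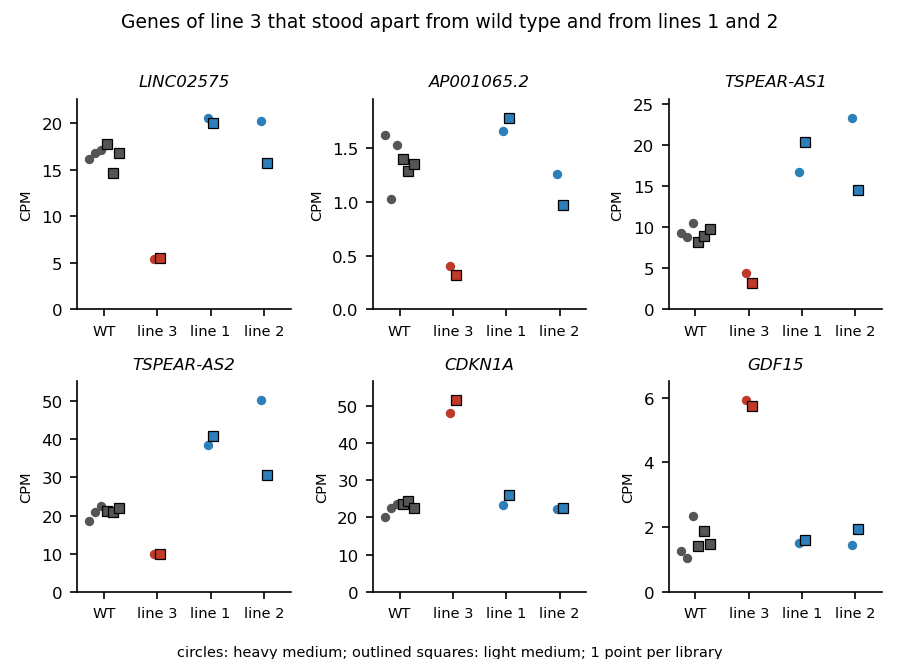
CPM by library for the 4 neighbouring chromosome 21 genes, CDKN1A and GDF15, on axes that start at 0; grey is wild type, red line 3, blue lines 1 and 2, circles heavy and outlined squares light medium. Both line 3 points lie below all others in the first 4 panels and above all others in the last 2.

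Of 16068 pairs of neighbouring tested genes, 122 passed in the same direction, and 15 runs of 3 or more were found, 9 higher and 6 lower, none longer than 4. The second run of 4 was on chromosome 4 (LINC02495, WFS1, PPP2R2C and MAN2B2, all higher); PPP2R2C, a phosphatase subunit, had 15.2 and 12.2 CPM against 6.40 to 7.09 CPM. LRRC61 and ZBED6CL on chromosome 7, which overlap and can share reads, had 26.89 and 26.04 CPM against 6.67 to 8.82 CPM and 29.6 and 28.8 CPM against 8.67 to 11.5 CPM. SEMA3C and HGF were in one run of lower genes with CACNA2D1, also on chromosome 7, and the TNFRSF1A rise was in a run with CD27-AS1 and TAPBPL on chromosome 12. The medians of whole chromosomes lay between -0.04 and 0.02 on the log2 scale.

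Line 3 was also compared with wild type within each medium. Taken alone, the heavy library of line 3 differed from heavy wild type in 623 genes (3.79%) and the light library from light wild type in 534 (3.24%), and 291 genes passed in both in the same direction. The last count also required a pass in the same direction with both media pooled. FMR1 fell by 2.43 in heavy and by 2.04 in light medium on the log2 scale. Each of these is 1 library against 3, so its error comes from the wild-type libraries. A different effect in the 2 media passed for 1 gene of 16459 (0.00608%), the processed pseudogene RPL14P1, while 922 had an unadjusted p under 0.05 and limma-voom called 1. RPL14P1 had 19.8 CPM in the heavy and 2.45 CPM in the light library of line 3 and 2.03 to 2.85 CPM in wild type (log2 difference 2.81, SE 0.260, adjusted p = 9.4e-05). It shares sequence with its parent gene RPL14, so its reads are uncertain. GFRA3, a GDNF-family receptor, had 24.2 and 14.6 CPM against 28.6 to 35.1 CPM, and CHRM3, a muscarinic receptor, 14.9 and 7.43 CPM against 14.0 to 22.2 CPM; both were lower in light than in heavy line 3 and neither passed (adjusted p = 0.0652 for each). The pseudogene RAC1P2 had 6.32 and 2.02 CPM against 1.46 to 2.16 CPM (adjusted p = 0.0864).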

How the data were processed

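RNA-seq libraries of SH-SY5Y wild type and 3 FMR1-knockout lines in heavy or light SILAC medium were analysed. The values are the authors' deposited raw counts per gene for 59087 features, of which 27691 were at 0 in all libraries. Per the submitters' processing notes the tools were bcl2fastq 2.19.0, STAR 2.7.0f, featureCounts of Subread 1.6.4, DESeq2 1.22.1 and R 3.5.1, with GRCh38.p13. The annotation, the strand setting and the treatment of multi-mapping reads were not given in the sources used here.

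The counts were tested in R 4.3.3 with edgeR 4.0.16 (filterByExpr, TMM factors, robust quasi-likelihood F test, medium as a covariate) and Benjamini-Hochberg adjustment at 0.05. CPM were scaled by TMM over all 12 libraries. Single-medium and interaction tests had 4 residual degrees of freedom, against 5 for line 3 against wild type. Positions came from GENCODE 29 by symbol, which found 56414 features, and promoters from RefSeq. No pair of libraries agreed within counting noise. On simulated data with 16459 genes for line 3 against wild type, 68.66% of genes changed 1.5-fold were recovered. Of those changed 2-fold 86.57% were recovered, and of those changed 4-fold 98.48%, with 8 false calls. The simulation gave every gene the same spread, had no medium effect and treated the libraries as independent. It therefore does not give the power or the error rate of the real comparison.

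Alternatives were RLE factors, DESeq2 1.42.0, limma-voom (limma 3.58.1), other low-count filters, all 12 libraries in one fit, a test against 1.5-fold, no medium term, the replicate number as a block, and each library left out. Leaving the heavy library of line 1 out of that line's comparison with wild type was chosen after seeing the data.

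The comparison, its 34 gene lists and the rule for named genes were chosen with earlier results of these data known. The rule takes FMR1, FXR1 and FXR2, the 15 largest rises and 15 largest falls with a mean of at least 2 CPM in the higher group and no overlap with wild type, the 4 members of each list with the smallest p, the 8 largest differences from lines 1 and 2 in each direction, and the 4 smallest p of the interaction. Some results are not reported here.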

Additional observations from a re-analysis of the deposited data

Results flagged for a closer look

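RPL14P1, a processed pseudogene, differed from wild type by more in heavy than in light medium, by the test of that difference itself (log2 2.81, adjusted p = 9.4e-05 with edgeR). A single library, the heavy one of line 3, holds the high value of 19.8 CPM.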

How the results depend on the processing

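The genes followed through the alternatives were FMR1, FXR1, FXR2 and named genes that had already passed against wild type. Not every gene named above was followed. None of those followed changed sign against wild type, which their selection made likely. The balance of calls did change. The 656 genes higher and 582 lower became 99 and 53 when tested against 1.5-fold. With all 12 libraries in one fit 316 were lower, and 63.21% of calls were then higher against 52.99%. That share was 48.51% with the replicate block and 48.27% without wild-type light replicate 1, where lower calls outnumbered higher ones. Leaving out 1 library gave 276 to 815 higher and 257 to 733 lower. The replicate block gave 342 higher and 363 lower and shared 633 of the 1238 calls. Deviations of wild-type heavy and light libraries of the same number correlated from -0.2411 to 0.2001, and those of different number from -0.5514 to 0.5131. With 3 libraries per medium, these values cannot decide whether the numbers pair the libraries. Against lines 1 and 2, 1259 higher and 1442 lower became 2052 and 2269 with all 12 libraries in one fit, and 225 to 1885 and 398 to 2083 with 1 library left out. The interaction count of 1 became 2 with all 12 libraries in one fit. Of 2477 values for the 146 genes followed against wild type, 2174 stayed on their side of the threshold and 303 lost the call. Genes of low count have wide errors, and 2 libraries of 1 line give no measure of how lines vary; the cause of these changes was not tested.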
